A study of Mus musculus with 2 samples.

Results

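Interferon-stimulated genes are the genes whose transcripts build up in a cell after interferon binds its receptor. A list of 37 of them was followed in the prefrontal cortex (PFC) of mice, from the transcription factors that read the interferon signal to the antiviral and antigen-processing proteins made in answer to it. Its members were named by gene, with no threshold on a measured value, although earlier results of these data were known when they were chosen. Of the 37 genes, 34 were matched to a probe among the 37069 distinct names that the arrays gave, through 42 probes. The remaining genes, Mx1, Mx2 and Oas1b, were not matched, and no value is given for them. RefSeq annotates each of these 3 as a transcribed pseudogene in the mouse reference GRCm38.p6, which comes from the C57BL/6J strain. Of the 34 matched genes, 33 were well above background on both arrays and 1, Oas3, on neither.

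The study compared male C57Bl/6 N sea mice kept under chronic mild stress (CMS group) with mice that were kept without it (C group). All mice were 9 to 10 weeks old at the start. The CMS group was housed singly and met a weekly schedule of mild stressors for 4 weeks, while the C group lived in groups with ordinary care, so single housing and the stressors cannot be told apart. Brain samples were taken on the day after the last stressor. No animal carried a transgene or received a drug as far as the labels and methods state. Total RNA of the mice of each group was mixed into 1 pool, with 7 mice per pool in the design text and 10 mice per group in the methods, and each pool was hybridized to 1 one-color Agilent array. With 1 array per group there was no spread between mice, no difference could be tested, and every ratio below describes these 2 pools.

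Type I interferons are secreted when a cell senses foreign or misplaced nucleic acid. Type I interferons act through a receptor that activates the kinases Jak1 and Tyk2, which phosphorylate Stat2, and a complex that holds Stat2 and Irf9 binds a DNA element called the interferon-stimulated response element (ISRE). Interferon gamma acts through Jak1 and Jak2 and on a DNA element called the gamma-activated site (GAS). In the brain, microglia, astrocytes, endothelium and neurons can all answer interferon, and a low tonic level of the response is present without infection.

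The promoter sequences of the listed genes are shown first, because the elements through which interferon acts can be read in them. RefSeq windows of GRCm38.p6, reaching from 250 bases before to 50 bases after the annotated start, held 31 of the 37 genes. Ifi27, Mx1, Mx2, Oas1b, Oas2 and Usp18 had no entry. An ISRE core was searched on both strands as GAAA, any 2 bases and GAAA again, and a GAS core as TTCNNNGAA, which reads the same pattern on either strand. Below, each stretch runs 5′ to 3′ on the strand of the gene, and capitals mark the letters that match. On a gene whose match lies on the opposite strand the capitals therefore read as TTTC blocks. The first group holds ISRE matches that lie before the start of 8 genes, from the ubiquitin-like modifier Isg15 to the GTPases and the transcription factor Stat2:

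Isg15, chr4:156200871-156200900, minus strand: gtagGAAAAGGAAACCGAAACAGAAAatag

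Bst2, chr8:71537580-71537609, minus strand: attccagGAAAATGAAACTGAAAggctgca

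Rsad2, chr12:26456553-26456582, minus strand: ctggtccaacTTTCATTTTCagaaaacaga

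Oas1a, chr5:120907523-120907552, minus strand: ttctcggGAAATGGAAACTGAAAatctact

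Irgm1, chr11:48871428-48871457, minus strand: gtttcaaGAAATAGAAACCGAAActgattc

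Gbp3, chr3:142559992-142560021, plus strand: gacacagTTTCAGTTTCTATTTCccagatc

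Ifit1, chr19:34640775-34640804, plus strand: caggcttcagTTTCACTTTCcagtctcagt

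Stat2, chr10:128270266-128270295, plus strand: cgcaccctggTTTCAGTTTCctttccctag

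The stretch of Isg15 holds 3 overlapping matches and begins its capitals 78 bases before the start, and those of Bst2, Oas1a, Irgm1 and Gbp3 hold 2 overlapping matches each. The single match of Rsad2 begins 120 bases before the start. Ifit1 holds a further match 85 bases before the start. The second group shows GAS matches from a transcription factor, an immunoproteasome subunit and an exonuclease, none of which had an ISRE match in its window:

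Irf1, chr11:53769914-53769942, plus strand: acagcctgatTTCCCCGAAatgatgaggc

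Psmb8, chr17:34198088-34198116, plus strand: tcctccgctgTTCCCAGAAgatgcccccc

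Isg20, chr7:78913341-78913369, plus strand: ctggggagggTTCTTGGAAtttttccttt

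Of the 31 genes with a window, 16 held an ISRE core, which is 51.6% against 3.99% of all 27025 genes with a window. A GAS core was held by 9 of the 31, or 29%, against 9.55% of all genes. Both cores were present in 4 genes, Bst2, Ifitm3, Igtp and Oas1a, and in Bst2 and Ifitm3 the letters of the GAS core overlap those of an ISRE core. Ifitm1, Irf7, Irf9 and Tap1 were among the genes with neither. A match is a description of letters, and its absence from a window says nothing of whether a factor binds.

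**Figure D1:**
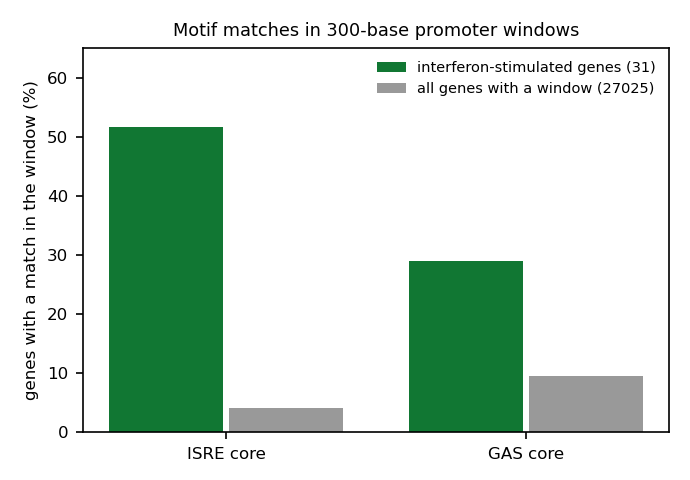
Share of genes (%, vertical axis, from 0) whose 300-base RefSeq promoter window held an ISRE core or a GAS core, for the 31 interferon-stimulated genes with a window (green) and for all 27025 genes with a window (gray). The green bar is the higher for both motifs, at 51.6% against 3.99% for the ISRE core and 29% against 9.55% for the GAS core.

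Both arrays lay on 1 slide and measured 59305 spots of 55681 probes. No spot was saturated, and 65.2% (C group) and 65.9% (CMS group) of the spots were well above background. Signals below are the scanner software's background-subtracted intensities on a linear scale, scaled so that each array averages 2500, and 1 probe's signal is not comparable with another's. The lowest signal well above background was 17.8 on the C array and 17.6 on the CMS array. All 10 neuron markers, among them Syt1, Snap25 and Stmn2, were above background on both arrays. Hepatocyte markers stood apart: 13 of the 15 were over 2-fold higher in the CMS pool and the median log2 ratio was 3.04, with Alb, the serum albumin gene, at 1509 in the C pool against 17486 in the CMS pool.

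The interferon-stimulated genes were, as a list, at nearly the same level in both pools. None of the 33 genes with a ratio was over 2-fold higher in the CMS pool, beside 1.96% of all 27098 names with a ratio, and none was over 2-fold lower, beside 0.565% of them. Among names above background on both arrays, as all 33 genes were, the shares were 1.16% and 0.173%. None of the 33 genes passed 1.5-fold in either direction, where 3.66% of all names were higher and 2.08% were lower. With shares this small, few or none of 33 genes would pass, so these counts of 0 say little by themselves. The median log2 ratio of CMS over C was 0.05, with quartiles of −0.05 and 0.15, and the median over all names was −0.03, with quartiles of −0.13 and 0.07. In these 33 genes, 22 ratios were above 0 and 11 below it, so 66.7% were above 0 against 41.2% of all names. That split depends on the scaling, since without scaling between the arrays 16 of the signs turned, and the list's median was then −0.13 while that of all names was −0.20. The list's median lay above that of all names by 0.08 in both cases. A single factor per array shifts nearly all ratios alike, so this difference could hardly change and its constancy is no check. The ratios ran from −0.37 for Ifitm1 to 0.54 for Rsad2. In bulk tissue, fewer cells of a type and less RNA per cell cannot be told apart.

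The scanner software also gives each spot an error, which covers the array and not the mice. For the log2 ratio of a listed gene it was between 0.20 and 0.34, with a median of 0.21. Rsad2 was the 1 gene that was higher by more than 2 scanner errors, beside 2.57% of all names above background on both arrays, and no gene was lower by more than 2, beside 1.69% of them. A ratio past 1 scanner error in either direction was seen in 6 genes (Rsad2, Bst2, Ifi35, Ifitm3, Ifitm1 and Gbp3), beside 19.1% of all names above background on both arrays. For 33 genes these counts are near the shares over all names, so they do not set the list apart.

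**Figure D2:**
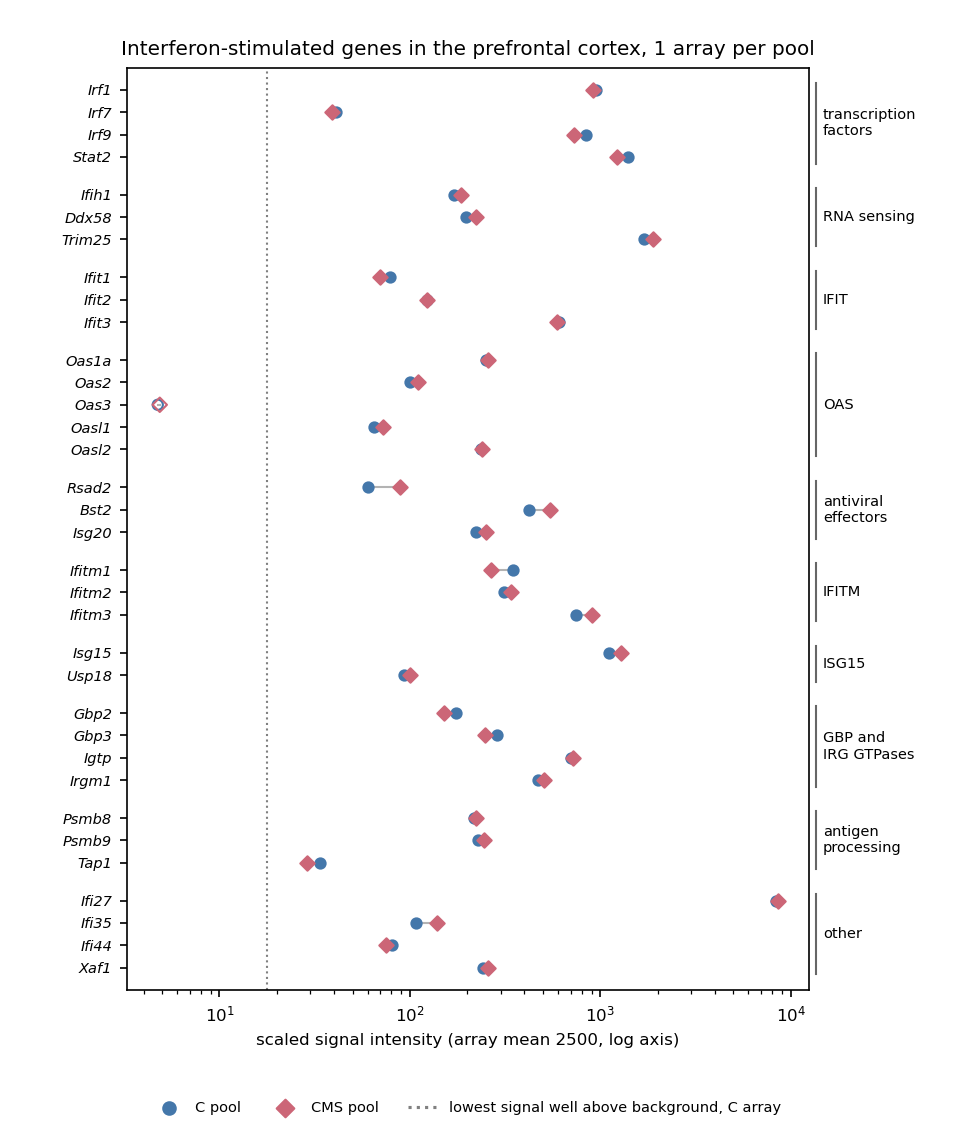
Scaled signal intensity (horizontal log axis, array mean 2500) of the 34 matched interferon-stimulated genes, grouped by role, in the C pool (blue circles) and the CMS pool (red diamonds), 1 array each. The 2 marks of most genes nearly cover each other, those of Rsad2, Bst2, Ifi35 and Ifitm1 are visibly apart, and Oas3, drawn with open marks, lies under the dotted line at the lowest signal well above background. Positions of different genes on the axis come from different probes and are not comparable.

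The 4 transcription factors that carry the response had ratios below 0, except that Irf7 turned to 0.05 with normexp background correction followed by quantile normalization, a setting named normexp with quantile below. Stat2, which carries the type I signal from the receptor to the nucleus, was at 1406 in the C pool against 1226 in the CMS pool, for a log2 ratio of −0.20. Irf9, which gives that complex its DNA contact, was at 837 and 729, also −0.20. Both differences were just under 1 scanner error of 0.20, and both ratios were below 0 under all 13 other settings tried. Irf1, an early target of interferon gamma, was at 946 in the C pool against 922 in the CMS pool (log2 ratio −0.04). Irf7, which amplifies type I interferon production, was near the low end of the array at 40.7 and 39.2 (−0.05, scanner error 0.28). For Irf1 and Irf7 the pools were thus far within the scanner error of each other. The median of the 4 factors was −0.13.

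The cytoplasmic sensors of viral RNA and their activator were all slightly higher in the CMS pool, by less than 1 scanner error each, although without scaling between the arrays Ifih1 and Trim25 were just below 0, at −0.05 and −0.02. Ddx58, which encodes the sensor RIG-I, was at 196 in the C pool against 223 in the CMS pool (log2 ratio 0.19). Ifih1, the sensor of long double-stranded RNA, was at 170 and 186 (0.13). Trim25, the ubiquitin ligase that activates RIG-I, was at 1706 and 1900 (0.16).

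The IFIT proteins, which bind foreign RNA and hinder its translation, are among the strongest markers of an interferon response. Ifit1 was at 78.6 in the C pool against 69.3 in the CMS pool, for a log2 ratio of −0.18 with a scanner error of 0.23. Ifit2 was at 123 in both pools (0.00). Ifit3 was at 604 and 591 (−0.03). None of the 3 was higher in the CMS pool beyond 0.00 on the log2 scale. Ifit3 has a near-identical neighbor, Ifit3b, and the probe may not separate them.

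The oligoadenylate synthetases sense double-stranded RNA and switch on RNase L. The 4 of them with a ratio were between 0.00 and 0.15, and all 4 were below 0 without scaling between the arrays. Oas2 was at 100.2 in the C pool against 111 in the CMS pool (log2 ratio 0.15), and Oasl1, which lacks the catalytic activity and restrains Irf7 translation, was at 64.9 and 71.9 (0.15). Oas1a was at 251 and 258 (0.04), with its second probe at 62.9 in both pools (0.00), and signal of close family copies on these probes cannot be told apart from its own. Oasl2 was at 238 in both pools (0.00). Oas3 was not well above background on either array, at 4.74 and 4.86, and has no ratio.

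Rsad2, Bst2 and Isg20, effectors that act directly on viruses, had a median log2 ratio of 0.37 and were all above 0, except that without scaling Isg20 was at −0.01. Rsad2 encodes viperin, an enzyme that makes a chain-terminating nucleotide. It read 60.6 in the C pool against 88.3 in the CMS pool, 1.46-fold higher, or 0.54 on the log2 scale with a scanner error of 0.24. It was the largest ratio of the list, and it came from 1 spot per array at a low signal. Normexp with quantile brought it down to 0.19. Bst2 encodes tetherin, which holds budding virus at the cell surface. It was at 421 in the C pool against 544 in the CMS pool, 1.29-fold higher, with a log2 ratio of 0.37 and a scanner error of 0.21. Its ratio ran from 0.20 to 0.39 over the other settings. Isg20, an exonuclease of viral RNA, was at 223 and 249.99 (0.17), and its second probe at 96.8 and 116 (0.27). Both probes of Isg20 thus read the same sign.

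The IFITM proteins sit in cell and endosome membranes and block virus entry, and their genes lie side by side on chromosome 7 in the order Ifitm2, Ifitm1, Ifitm3. They did not read alike. Ifitm1 was at 346 in the C pool against 268 in the CMS pool, 1.29-fold lower, with a log2 ratio of −0.37 and a scanner error of 0.21. It was the lowest ratio of the list and stayed between −0.54 and −0.33 in the other settings. Ifitm2 was at 311 and 339 (0.12, and −0.05 without scaling). Ifitm3 was at 749.9 in the C pool against 904 in the CMS pool, 1.21-fold higher (0.27).

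Ifitm3 was 1 of the 3 listed genes whose probe was repeated over the array, which shows the spread between spots. Its 9 spots read from 683 to 811 in the C pool, with a median of 747, and from 864 to 947 in the CMS pool, with a median of 905. The spots of the pools did not overlap, and all 9 spot ratios were above 0, with a mean log2 ratio of 0.27 ± 0.11 (SD over 9 spots). Without scaling between the arrays they did overlap, 7 of the 9 spot ratios were above 0 and the mean was 0.10. The share of all repeated probes whose spots separate in this way is not given, so whether the separation is unusual is not known. Igtp, an immunity-related GTPase that guards membranes against intracellular pathogens, had 8 usable spots in both pools, from 661 to 752 in the C pool and from 697 to 733 in the CMS pool. These overlapped, and the spot ratios averaged 0.04 ± 0.07 (SD over 8 spots), with 6 above 0 and 2 below it, and without scaling all 8 were below 0. Tap1, the peptide transporter that loads MHC class I, had 10 spots, from 22.4 to 68.4 in the C pool and from 21.4 to 38.2 in the CMS pool. Its spot ratios ran from −1.35 to 0.50, with 5 on each side of 0 and a median of 0.02, and without scaling 8 of the 10 were below 0. The ratio of the Tap1 means, 33.8 to 28.9 or −0.23, therefore differed from the median of its spots, and the highest C spot, at 68.4, lay far above the others. Spots repeat the same pool on the same array, so their spread is not that between mice.

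**Figure D3:**
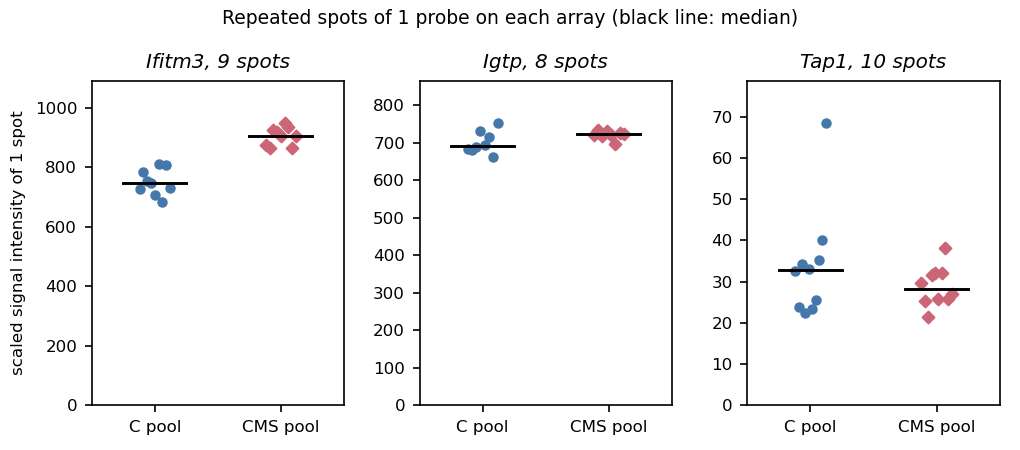
Scaled signal intensity (vertical axis, from 0, 1 scale per panel) of each spot of the repeated probes of Ifitm3 (9 spots), Igtp (8 spots) and Tap1 (10 spots) in the C pool (blue) and the CMS pool (red), with the median as a black line. With this scaling the spots of Ifitm3 do not overlap between the pools, those of Igtp and Tap1 do, and 1 Tap1 spot of the C pool lies at 68.4. The spots repeat 1 pool on 1 array and do not show the spread between mice.

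Isg15 and Usp18 form a pair, the ubiquitin-like modifier that interferon induces and the protease that removes it and also damps the receptor. Isg15 was at 1116 in the C pool against 1282 in the CMS pool, for a log2 ratio of 0.20 with a scanner error of 0.20. Its second probe was at 64.2 and 79.2 (0.30), so both probes were higher in the CMS pool, and its ratio was above 0 in all other settings. Usp18 was at 93.0 and 100.2 (0.11), with a sign that turned without scaling and under normexp with quantile.

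The GTPases that interferon gamma induces most were split. Gbp2 and Gbp3, guanylate-binding proteins that attack the vacuoles of pathogens and lie near each other on chromosome 3, were both lower in the CMS pool. Gbp2 was at 174 in the C pool against 151 in the CMS pool (log2 ratio −0.20), and Gbp3 at 286 and 247 (−0.21). Both stayed below 0 in all other settings, although Gbp3 came to −0.05 under normexp with quantile. Igtp was at 698 and 721 (0.05). Irgm1, which regulates the other immunity-related GTPases, was at 471 and 506 (0.10) on its brighter probe and at 85.5 and 74.6 (−0.20) on its other probe. The signs of the 2 Irgm1 probes differed, so no direction can be given for it.

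Antigen processing was represented by 3 genes that are adjacent on chromosome 17 in the order Psmb9, Tap1, Psmb8. Psmb8 and Psmb9 encode catalytic subunits of the immunoproteasome. Psmb8 was at 218 in the C pool against 222 in the CMS pool (log2 ratio 0.02), and Psmb9 at 227 and 244 (0.11). These 2 genes were close to equal in the pools. Tap1, at a low signal, read −0.23 by the means of its spots and 0.02 by their median ratio, so no direction is given for it. None of the 3 genes was past 1 scanner error, and without scaling all were below 0.

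The remaining listed genes have less settled roles. Ifi27 gave a bright probe at 8408 in the C pool against 8610 in the CMS pool (log2 ratio 0.03). Ifi35 was at 108 and 139, 1.296-fold higher, with a ratio of 0.37 and a scanner error of 0.21. Its ratio lay between 0.20 and 0.39 in the other settings. Ifi44 was at 80.7 and 74.8 (−0.11), and Xaf1, which promotes apoptosis, at 242 and 257 (0.08). Ifi35 was thus the only gene of these 4 past 1 scanner error.

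**Figure D4:**
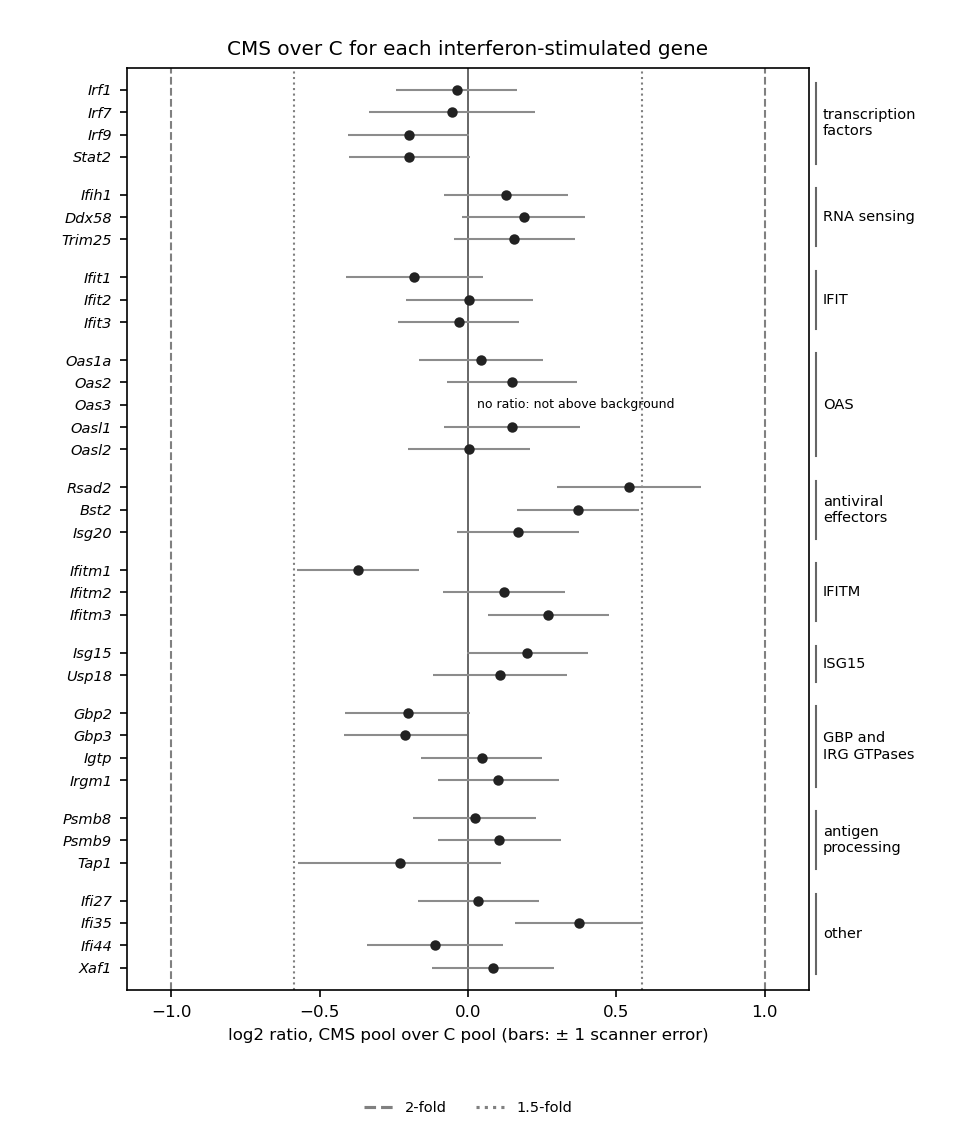
Log2 ratio of the CMS pool over the C pool (horizontal axis) for each interferon-stimulated gene, grouped by role, with bars of ± 1 scanner error, which covers the arrays and not the mice. All 33 points lie between the dotted lines at 1.5-fold, from −0.37 for Ifitm1 to 0.54 for Rsad2, and Oas3 has no ratio.

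The values were then read against the promoter windows. The 15 genes with an ISRE core and a ratio had a median log2 ratio of 0.10, from −0.21 for Gbp3 to 0.54 for Rsad2. That median is the value of the brighter Irgm1 probe, while the other Irgm1 probe read −0.20, so it is not a firm value. The 15 without it had a median of 0.00, from −0.37 for Ifitm1 to 0.37 for Ifi35. With a GAS core the median was 0.05 over 9 genes, and without it 0.00 over 21. The ranges of the groups overlapped. Bst2 and Rsad2, shown above with ISRE matches, were the genes with the largest ratios in the group that holds the core, while Ifit1, Stat2 and Gbp3, also shown with matches, were at −0.18, −0.20 and −0.21.

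Other genes of the pathway were read from 5 lists of 93 genes, of which 87 were matched and 78 had a ratio. Their median log2 ratio was −0.03, equal to that of all names to 2 decimals. None was over 2-fold higher or lower, and 4 were over 1.5-fold higher and 1 over 1.5-fold lower, beside 3.66% and 2.08% of all names.

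Of the ligands, 9 of the 16 matched genes were above background in both pools and 1 in the CMS pool alone. Ifnb1, the interferon beta gene, was not well above background in either pool, at 4.84 in the C pool against 4.88 in the CMS pool. Ifng, which encodes interferon gamma, was not above background either, at 9.71 and 4.21. These are among the 6 ligand genes that were above background in neither pool, and the 10 with a ratio had a median of −0.06, from −0.53 to 0.35. Probes of the interferon alpha family share sequence, so its members cannot be told apart with certainty.

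Among 10 receptor and kinase genes, 9 had a ratio, with a median of −0.07 and a range from −0.23 to 0.23. The 8 negative regulators had a median of −0.10, from −0.50 to 0.08, and none passed 1.5-fold.

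The 14 sensing genes with a ratio had a median of −0.06, and 2 of them passed 1.5-fold. Dhx58, a helicase related to RIG-I and itself induced by interferon, was at 42.9 in the C pool against 69.4 in the CMS pool (1.62-fold higher, log2 ratio 0.69, scanner error 0.25). Irf5, a transcription factor of macrophages and microglia that acts under Toll-like receptors, was at 132 and 201 (1.52-fold, 0.60, scanner error 0.21). Over the other settings Dhx58 lay between 0.38 and 0.71 and Irf5 between 0.37 and 0.62, so neither was past 1.5-fold in all of them.

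The further interferon-induced genes, 37 with a ratio, had a median of 0.05, the same as the 33 listed genes to 2 decimals. Ifi27l2a, an interferon-induced relative of Ifi27, was at 340 in the C pool against 539 in the CMS pool (1.58-fold higher, log2 ratio 0.66, scanner error 0.21). Trim30a, which restrains inflammatory signaling, was at 32.4 and 51.3 (1.58-fold, 0.66, scanner error 0.30). Tgtp1, an interferon-induced GTPase, was at 33.2 in the C pool and not well above background in the CMS pool, at 19.5. It read 1.71-fold lower there with this scaling (log2 ratio −0.77, scanner error 0.44), which is the plain ratio to that dim signal. Ifi27l2a lay between 0.49 and 0.68 in the other settings, Trim30a between 0.22 and 0.68, and Tgtp1 between −0.94 and −0.27. Under normexp with quantile none of Ifi27l2a, Trim30a and Tgtp1 was past 1.5-fold, and without scaling neither Ifi27l2a nor Trim30a was. None of these 5 genes belongs to the 33 above, which all stayed within 1.5-fold.

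Markers of cells that could carry interferon-stimulated transcripts into the sample were read beside them. All 10 microglia markers were above background, with a median log2 ratio of 0.05 and a summed signal of 192199 in the C pool against 201419 in the CMS pool. The 10 brain endothelium markers had a median of −0.02 and sums of 28838 and 29379. The 8 astrocyte markers had a median of −0.08 and the 8 oligodendrocyte markers one of −0.15, with sums of 225369 and 209877, and of 123772 and 120406. The 10 neuron markers had a median of −0.02, with sums of 274100 and 270511. The 8 markers of meninges and fibroblasts had a median of 0.10, with sums of 157514 and 146334. Single bright probes gave most of some sums. Ptgds gave 151012 and 139437 of the last, Siglech 156486 and 164038 for microglia, and Aldoc 196370 and 181923 for astrocytes. None of the markers in these 6 lists was over 2-fold higher or lower.

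Of the blood and liver lists, those of neutrophils, erythroid cells, Kupffer cells and hepatocytes had medians between 0.45 and 3.04, and those of T and NK cells and of monocytes and macrophages had medians of 0.00 and 0.10. Of 8 neutrophil markers 6 had a ratio, with a median of 0.75 and 2 over 2-fold higher, among them S100a9 at 371 in the C pool against 843 in the CMS pool, and Mmp8 and Mmp9 were not above background. Of the 6, 2 were above background in the CMS pool alone, and the other marker over 2-fold was 1 of these. The summed signal of this list was 3529 and 3726, of which Elane, whose ratio of −0.29 was opposite to the list's median, gave 2798 and 2291. Of 8 erythroid markers 3 had a ratio, with a median of 0.49, sums of 19483 and 25834, and Epb42 and Klf1 among those not above background. Hba-a1 gave 19004 and 25167 of those sums. Of 8 T and NK cell markers 5 had a ratio, with sums of 10093 and 9524, and of this list Cd3d, Cd8a and Klrb1c were not above background in either pool, while Cd3e was, at 1284 and 1375, and so was Cd4, at 6290 and 5678. Of 8 monocyte and macrophage markers 4 had a ratio, with sums of 33684 and 35193 and with Ccr2 and Cd163 not above background. Itgam gave 33158 and 34619 of those sums. All 15 hepatocyte markers were higher in the CMS pool, from 0.69 to 3.55 on the log2 scale, with sums of 20457 and 80225. Of 8 Kupffer cell markers 7 had a ratio, with a median of 0.45, 1 of them over 2-fold higher, sums of 711 and 891, and Timd4 not above background. Of the 7, 2 were above background in the CMS pool alone. The marker over 2-fold was 1 of these, with a log2 ratio of 1.14 and a scanner error of 1.13. The part of these cells in the ratios of Rsad2, Bst2, Ifi35, Ifitm3 and the other listed genes was not tested.

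**Figure D5:**
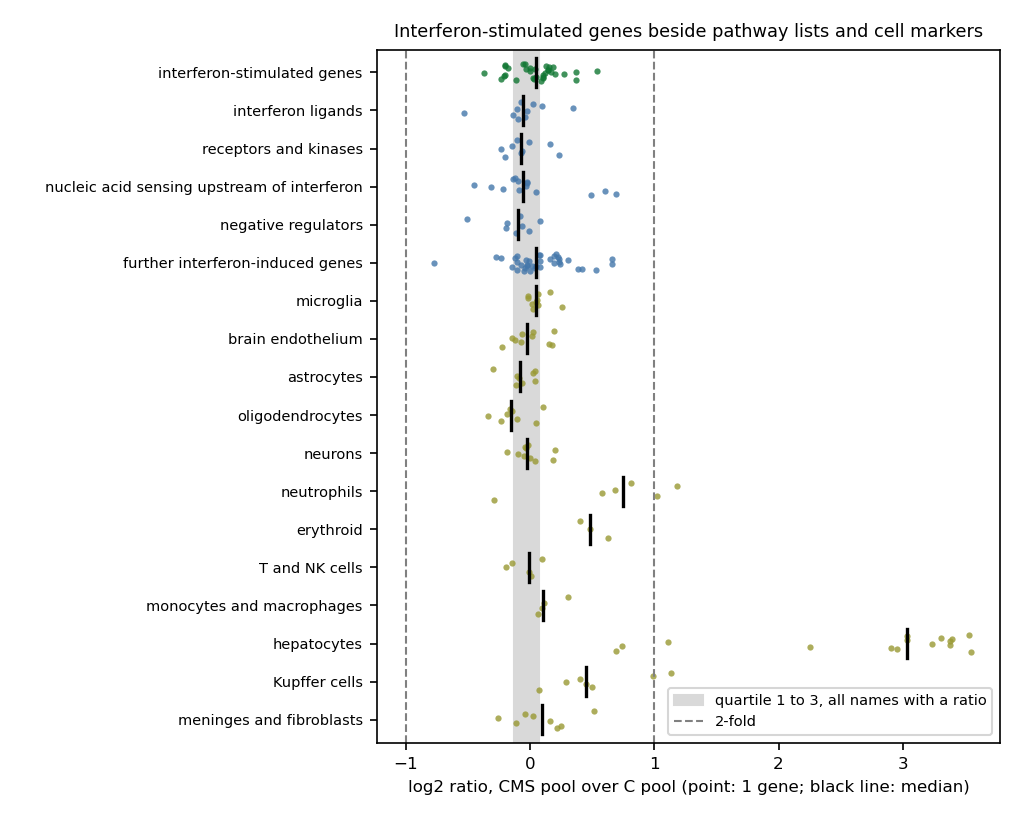
Log2 ratio of the CMS pool over the C pool (horizontal axis), 1 point per gene, for the interferon-stimulated genes (green), 5 other lists of the pathway (blue) and 12 lists of cell markers (olive), with the median of each list as a black line, the quartiles of all names as a gray band and 2-fold as dashed lines. The interferon-stimulated genes lie around 0 with a median of 0.05, while the hepatocyte markers lie between 0.69 and 3.55.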

How the data were processed

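For each spot the authors deposited processed signal intensities from Agilent Feature Extraction 10.10.1.1, linear and already corrected for background and for spatial trends, and a table of these intensities scaled by 1 constant factor per array, 1.80 for the C group and 2.05 for the CMS group. The column medians of that table were 149 and 153, and its mean reaches 2500 only with the lowest and highest 2% left out. The design file of the array names mm9, and no coordinate of it was used.

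Control spots and outlier spots (130 and 133) were left out, spots of 1 probe were averaged, and the probe mean of each array was set to 2500, as in the methods of the study. For a probe to be called well above background, a share of 0.5 or more of its spots had to be. For a probe above background on 1 array, the other array's signal was raised, as a bound, to the lowest signal above background there if it lay under it. A probe above on neither was given no ratio. Accessions were named by their unversioned form in RefSeq's table for GRCm38.p6, which named 30740 spots of 27235 probes. A gene with several probes was read from that of highest mean log2 signal. Irf1, Ifih1, Ddx58 and Xaf1 each had a second probe that was not well above background on either array. The study's rule of over 2-fold higher or less than 0.5 was used for calls.

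No test, standard deviation between mice or leave-one-out analysis could be made with 1 array per group. Precision is limited by this number of arrays. The scanner error is the software's error of the processed signal, carried to the log2 ratio. Values were given for the 34 matched genes, and of other pathway genes for those past 1.5-fold and for Ifnb1 and Ifng (a further gene that the rule names is not reported here), and of the cell lists for at most 3 genes by signal. The members and lists were chosen with earlier results of these data known. Alternatives were other scalings (75th percentile, median, trimmed mean, none, quantile), normexp (offset 50) and then quantile normalization, the table deposited by the authors, other treatment of dim probes, outlier spots kept and other rules for several probes. The scanner tables hold median spot intensities, so normexp was run on those. The calculation was tested on simulated data. Python 3.11.15, numpy 2.4.6, pandas 2.3.3, matplotlib 3.10.9, R 4.3.3 and limma 3.58.1 were used.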

Additional observations from a re-analysis of the deposited data

How the results depend on the processing

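The counts of interferon-stimulated genes past 2-fold stayed at 0 in both directions under all 13 alternatives and with 1.5-fold in place of 2-fold. Not all of these settings could change them. The 33 genes were above background on both arrays, so the other treatments of dim probes left their ratios as they were. The deposited table nearly repeats the trimmed-mean scaling. The median log2 ratio of the list, 0.05, moved by more than the limit of 0.03 that the spread between spots (SD 0.14 over 310 probes) gives it only without scaling between the arrays, where it was −0.13. The cause lies in the construction, since that setting also shifted the median of all names from −0.03 to −0.20. Under the other alternatives the median lay between 0.02 and 0.07, and it lay above the median of all names by 0.06 to 0.09 in every one. Settings that only scale each array by 1 factor shift nearly all ratios alike and could hardly change that difference. Of the ratios of single genes under alternatives, 391 moved by less than the SD between spots and 38 by more, 33 of these without scaling and 4 (Rsad2, Usp18, Gbp3 and Tap1) with normexp on median intensities followed by quantile normalization. The 391 include the ratios that the treatments of dim probes could not move. Irgm1 was at −0.05 as the mean of its probes. The ratios of 16 genes kept 1 sign in all settings, among them Rsad2, Bst2, Ifi35, Ifitm3, Isg15, Ifitm1, Stat2 and Irf9. Among all names, 531 were over 2-fold higher and 153 lower, against 265 and 38 with normexp and quantile (510 and 165 with quantile normalization of the processed signal alone), 294 and 44 with only probes above background on both arrays, 767 and 309 without bounds, 427 and 249 without scaling, and 1493 and 1069 with no filter.

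No paired analysis was possible because each group has 1 array, and slide was not fitted as a term, both arrays being on the same one. Precision is limited by signal over background. Over the lowest signal above background, the median signal was higher by a factor of 3.64 (C group) and 3.76 (CMS group). Ratios of dim probes such as Irf7, Tap1, Rsad2 and Trim30a are the least certain. Neither mice nor hybridizations were repeated, so whether any of these ratios exceeds the spread between mice was not tested.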
